A study of Mus musculus with 4 samples.

Results

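The genes of retinoid handling were read in the testis of mice that lack the antizyme inhibitor AZIN2. They are 9 genes of the 18820 that had an array value of their own: Stra6, Adh1, Rdh10, Aldh1a1, Aldh1a2, Crabp1, Cyp26b1, Rara and Gprc5a. All probe sets annotated with these symbols were taken, which gave 1 probe set for each gene. Adh1 and Gprc5a were included because of their difference between the genotypes in these data, so their differences are given as a description without a test. The other 7 genes complete the route of vitamin A through the cell.

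Whole testes of Azin2 KO and Azin2 WT mice were profiled on 4 Affymetrix arrays of the Mouse Gene 1.1 ST type. There were 2 arrays of KO and 2 of WT RNA, every one loaded with RNA of 3 pooled testes, which the study describes as coming from 3 mice. The mice were adults, stated to be 3 to 4 months old, and the Azin2 KO line had a mixed C57BL/6 background. The KO mice are homozygous for a β-Geo cassette between exons 4 and 5 of Azin2, which is present in all cells and leaves a truncated Azin2-lacZ fusion under the Azin2 promoter. Values are log2 signals from RMA, a method that corrects background, brings the arrays to 1 distribution and summarizes the probes of each probe set. Array medians were 6.08 to 6.11. Azin2 was at 7.36 and 7.14 in the KO pools, against 10.16 and 10.00 in the WT pools, a log2 fold change of -2.83 and an adjusted p of 0.0250 from limma, and which of its exons the probes cover was not determined. Spermatid transcripts were high in all pools, with Prm1, a protamine of sperm chromatin, at 12.34 and 12.33 in KO and at 12.40 and 12.38 in WT testes.

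Retinol, the circulating form of vitamin A, is taken up through the membrane receptor STRA6 and oxidized reversibly to retinal by alcohol dehydrogenases and retinol dehydrogenases. Retinal dehydrogenases then oxidize retinal irreversibly to retinoic acid, which is bound in the cytosol by CRABP proteins, broken down by CYP26 enzymes, or carried to nuclear receptors of the RAR and RXR families. In the testis, retinoic acid induces the differentiation of spermatogonia and the entry into meiosis, and vitamin A deficiency arrests spermatogenesis.

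In KO testes the signal of Adh1 was 62.9% of that in WT testes, and that of Gprc5a was 171% of it. The other 7 genes had from 93.6% of the WT signal for Rdh10 to 113% for Stra6. A fold threshold, 1.5-fold together with an unadjusted limma p below 0.05, was met by 0.0823% of the 23099 named probe sets, 0.0216% higher and 0.0606% lower in KO. Adh1 and Gprc5a are among them, but as both were chosen on this contrast nothing is read from it. By fold, Adh1 stood next to Cxcl13 (1.62) and Gpha2 (1.57), and Gprc5a stood above Gm10324 (1.67). Of the other 7 genes, 0 passed an adjusted p of 0.05 from limma, against 0.00433% of the named probe sets, and 0 had an unadjusted p under 0.05, against 4.1% of the probe sets. Their unadjusted p-values ranged from 0.186 for Rdh10 to 0.945 for Aldh1a1 (limma, n = 2 pools each), with an adjusted p of 0.9995 for all 7. KO and WT pools did not overlap for 1 of the 7, Rdh10, which was lower in KO. Over all genes, 32.4% did not overlap, with 12.2% lower in KO. In whole testis, a lower signal of a gene in each cell and fewer cells of the type that expresses it cannot be told apart.

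**Figure D1:**
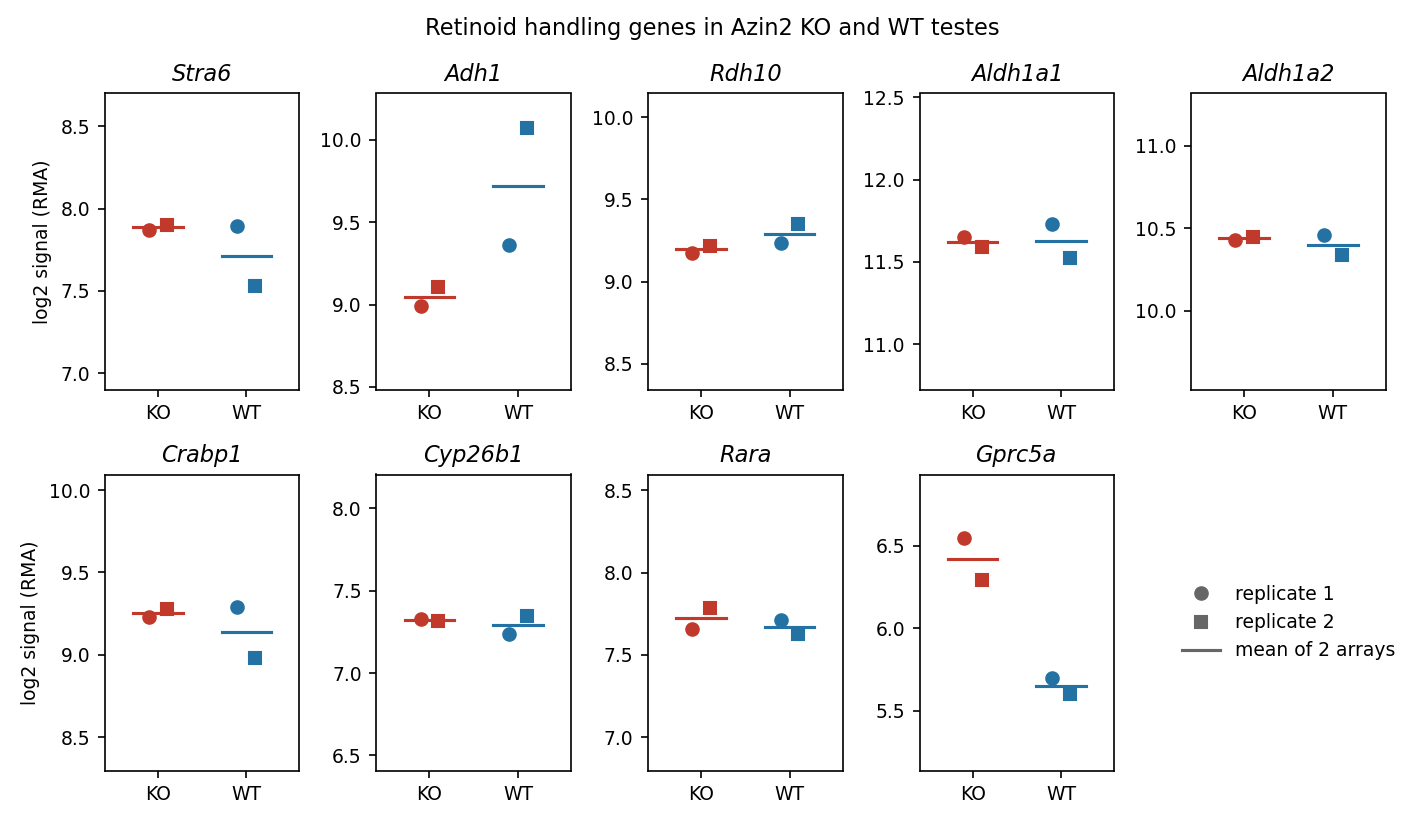
Log2 signal (vertical axes, all of the same span) of the 9 genes on each array, KO red and WT blue. Circles are replicate 1, squares replicate 2 and bars the mean of 2 arrays. Adh1 was lower in both KO pools with a wide gap between the WT pools (9.36 and 10.07), Gprc5a was higher in both KO pools, and the other genes differed by at most 0.18 between the means.

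Stra6 encodes the receptor that imports retinol from its plasma carrier, the retinol-binding protein. It was at 7.87 and 7.90 in the KO pools, against 7.89 and 7.53 in the WT pools (probe set 10585803). The 2 KO pools and WT replicate 1 lay within 0.03 of each other, and WT replicate 2 stood below them. The log2 fold change was 0.18 (standard error 0.125, 95% confidence interval -0.15 to 0.50). Without WT replicate 2 it was -0.0066, and without WT replicate 1 it was 0.36, with an unadjusted p of 0.00557 and an adjusted p of 0.920 from limma. Its direction thus turned on which WT pool was used.

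Adh1 encodes the class I alcohol dehydrogenase, a cytosolic enzyme that oxidizes ethanol and retinol. It was at 8.99 and 9.10 in the KO pools, against 9.36 and 10.07 in the WT pools (probe set 10496438). The 2 KO pools were close to each other, both lay below the WT pools, and the WT pools stood 0.71 apart, which is more than the 0.26 between the lower WT pool and the higher KO pool. The KO mean was 9.05 ± 0.08 and the WT mean 9.72 ± 0.50 (SD, n = 2 pools each), which gives a log2 fold change of -0.67. The fold by which KO lay below WT was 1.59. The ratio of KO to WT signal was 0.492 when WT replicate 1 was left out and 0.803 when WT replicate 2 was, so its size depended on the WT pool used. Since the pools do not overlap, leaving one out cannot turn the sign.

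The 250 bases before the start of Adh1 are shown because this gene had the lowest KO signal relative to WT of the 9 (chr3:138277335-138277584, plus strand, GRCm38.p6, from RefSeq). They were searched on both strands for the half-sites of retinoic acid receptors, which would stand in capitals. These were AGGTCA as the consensus, the variant AGTTCA known from the Rarb element, the variant GGGTCA and, also from that element, the variant GGTTCA.
Adh1: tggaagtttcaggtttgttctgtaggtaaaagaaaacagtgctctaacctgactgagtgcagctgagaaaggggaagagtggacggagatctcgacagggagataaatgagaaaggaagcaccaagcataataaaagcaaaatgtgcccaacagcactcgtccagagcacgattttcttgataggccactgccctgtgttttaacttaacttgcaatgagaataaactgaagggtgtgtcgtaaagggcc
None of the 4 half-sites is in this stretch. Promoter windows, which run from 250 bases before to 50 after a start, were listed for 7 of the 9 genes, all but Gprc5a and Rdh10. At least 1 half-site was in 4 of their 14 windows (28.6%), those of Stra6, Rara and Aldh1a1, against 43.7% of all 32851 windows.

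Adh1 lies in a cluster of alcohol dehydrogenase genes on chromosome 3, between Adh7 and Adh6a in GRCm38.p6. The other 6 genes of the cluster had log2 fold changes from -0.07 for Adh5, the class III enzyme that acts on glutathione-bound formaldehyde, to 0.10 for Adh4, the class II enzyme. They were taken for their position, after their values were seen. Adh7, the class IV enzyme that is active on retinol, was at 6.87 and 6.89 in the KO pools, against 6.71 and 7.06 in the WT pools, and its log2 fold change was -0.0064. Like Adh1, Adh7 had its highest value in WT replicate 2, as did 23.8% of all genes. Adh4, Adh6a and Adh6b were highest in KO replicate 2, and Adh5 in WT replicate 1. None of the 6 had an unadjusted p under 0.05 from limma.

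Rdh10 encodes the membrane-bound retinol dehydrogenase that provides retinal for retinoic acid synthesis in the embryo. It was at 9.17 and 9.22 in the KO pools, against 9.23 and 9.35 in the WT pools (probe set 10344952). Its order across the pools was that of Adh1, lowest in KO replicate 1 and highest in WT replicate 2, over a much narrower range. The groups were separated by 0.01, less than the distance between the pools of either genotype, and the log2 fold change was -0.10 (standard error 0.06, 95% confidence interval -0.26 to 0.06). Of the 20 other genes listed for the interconversion of retinol and retinal, 0 passed either threshold, and their median log2 fold change was 0.02, against 0.01 over all genes. They ranged from -0.07 for Adh5 to 0.14 for Rdh16, a microsomal retinol dehydrogenase whose signal was dim (5.05 and 5.11 in KO, 4.91 and 4.97 in WT testes).

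Aldh1a1 and Aldh1a2 encode retinal dehydrogenases, the enzymes that commit retinal to retinoic acid. Aldh1a1 gave a strong signal, at 11.65 and 11.59 in the KO pools, against 11.73 and 11.52 in the WT pools (probe set 10461979). The KO pools lay between the WT pools, and the log2 fold change was -0.0061 (standard error 0.08, 95% confidence interval -0.22 to 0.21). Aldh1a2 was at 10.43 and 10.45 in the KO pools, against 10.46 and 10.34 in the WT pools (probe set 10586865). Its KO pools also lay between the WT pools, at a log2 fold change of 0.04 (standard error 0.06, 95% confidence interval -0.12 to 0.20).

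Of the 3 other genes listed for retinal oxidation, 2 were lower in both KO pools than in both WT pools, against 12.2% of all genes. Aldh1a7, a close paralog of Aldh1a1 that is also on chromosome 19, was at 8.21 and 8.23 in KO, against 8.66 and 8.33 in the WT pools, with a log2 fold change of -0.275 (unadjusted p = 0.0625 and adjusted p = 0.9995 from limma). Neither cross-hybridization between these paralogs nor an activity of the Aldh1a7 enzyme on retinal was tested. Aldh8a1, listed for the activity of its enzyme on retinal and named here because it was the single listed pathway gene with an unadjusted p under 0.05, was at 5.46 in both KO pools, against 5.73 and 5.63 in the WT pools. Its log2 fold change was -0.22 (unadjusted p = 0.0120 and adjusted p = 0.9995 from limma), at a signal below the median of every array. The third, Aldh1a3, had a log2 fold change of 0.07.

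Crabp1 encodes a cytosolic protein that binds retinoic acid. It was at 9.23 and 9.28 in the KO pools, against 9.29 and 8.98 in the WT pools (probe set 10585438). As with Stra6, 3 pools were close together and WT replicate 2 was lower. The log2 fold change was 0.12 (standard error 0.11, 95% confidence interval -0.16 to 0.40), and it was 0.27 without WT replicate 1 (unadjusted p = 0.0160 and adjusted p = 0.920 from limma) and -0.03 without WT replicate 2. After each gene was centred on its own mean, Stra6 and Crabp1 were the closest pair among the 9 genes, at a Euclidean distance of 0.07 over the 4 arrays. The other 2 genes listed for binding, Crabp2 and Fabp5, had log2 fold changes of 0.01 and -0.0022.

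Cyp26b1 encodes a cytochrome P450 that breaks down retinoic acid and keeps germ cells of the fetal testis out of meiosis. It was at 7.33 and 7.32 in the KO pools, against 7.24 and 7.35 in the WT pools (probe set 10545771). The KO pools lay between the WT pools, and the log2 fold change was 0.03 (standard error 0.06, 95% confidence interval -0.12 to 0.18). Rara encodes the retinoic acid receptor alpha. It was at 7.66 and 7.79 in the KO pools, against 7.71 and 7.63 in the WT pools (probe set 10381082), and its log2 fold change was 0.06 (standard error 0.07, 95% confidence interval -0.12 to 0.23). The groups overlapped for both genes.

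**Figure D2:**
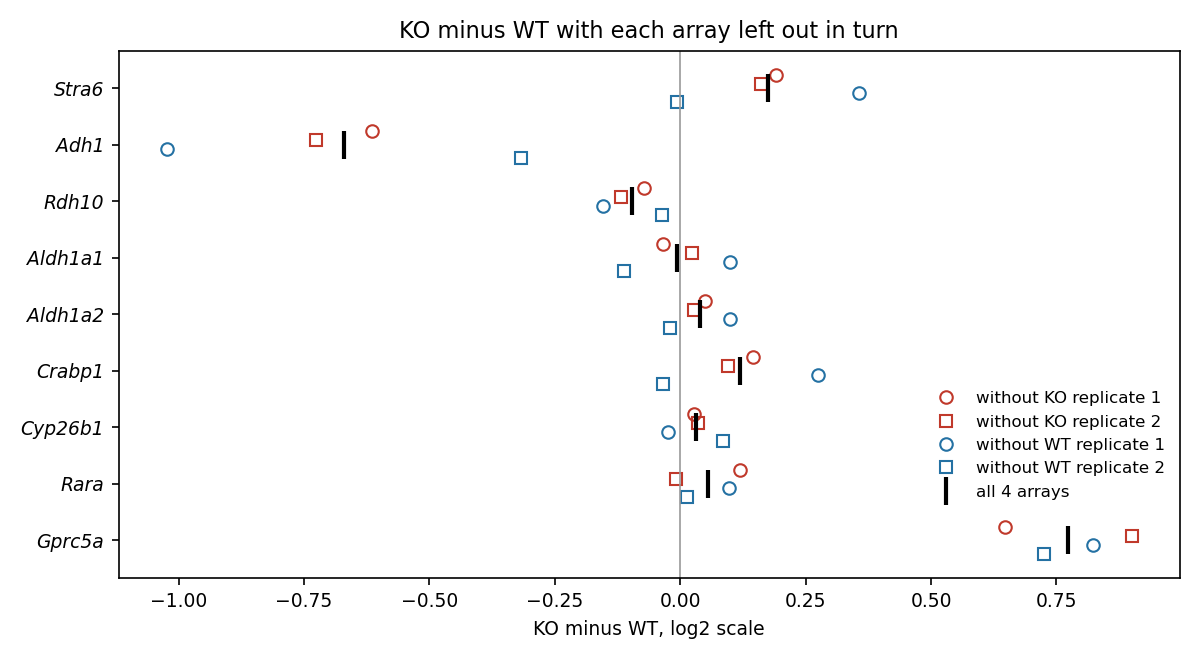
Difference between KO and WT testes on the log2 scale (horizontal axis) for the 9 genes, from all 4 arrays (black bars) and with each array left out in turn (red for a KO array, blue for a WT array). Adh1 stayed between -1.02 and -0.32 and Gprc5a between 0.65 and 0.90. Of the other 7 genes only Rdh10 kept its sign each time. For Adh1, Gprc5a and Rdh10 the pools of the genotypes do not overlap, so leaving 1 out could not turn the sign.

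Gprc5a encodes an orphan receptor of the plasma membrane whose transcription is induced by retinoic acid. It was at 6.55 and 6.29 in the KO pools, against 5.70 and 5.60 in the WT pools (probe set 10542335). Both KO pools lay above both WT pools, and the gap of 0.60 between the nearest pools was wider than the distance of 0.25 between the KO pools and of 0.10 between the WT pools. The KO mean was 6.42 ± 0.18 and the WT mean 5.65 ± 0.07 (SD, n = 2 pools each), which gives a log2 fold change of 0.77. The fold of 1.71 was between 1.57 and 1.87 with each pool left out in turn. As the pools do not overlap, leaving 1 out could not turn its sign, and Gprc5a was picked for this difference. The signal was low: the WT pools were below the median of all probe sets on their arrays and the KO pools above it. As RMA values include background hybridization and carry no detection call, it is not known how far the WT signal stood above background. The 3 other receptors of the family had smaller differences, 0.11 for Gprc5d, 0.04 for Gprc5b and 0.03 for Gprc5c on the log2 scale, and none had an unadjusted p under 0.05 from limma.

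None of the other genes known to respond to retinoic acid passed a threshold. Of 6 listed, 5 had a value, and all 5 were below 0, with a median log2 fold change of -0.16, against 0.01 over all genes. Over all genes, 43.4% were below 0 and 56.6% above. The sign of 3 of the 5 rested on 1 KO pool: it turned for Kit without KO replicate 1, and for Stra8 (0.13) and Rec8 (0.0045), a cohesin subunit gene of meiosis, without KO replicate 2. Rarres1, a retinoid-induced membrane protein gene, was at 7.52 and 7.21 in the KO pools, against 8.37 and 7.54 in the WT pools. The groups were 0.02 apart and the WT pools 0.83 apart. Its log2 fold change was -0.585 (unadjusted p = 0.0958 and adjusted p = 0.9995 from limma), and leaving out WT replicate 1 gave -0.17. Leaving out WT replicate 2 gave -1.0001 (unadjusted p = 0.00204 and adjusted p = 0.9995 from limma). Stra8, which retinoic acid induces in germ cells before meiosis, was at 6.43 and 6.11 in the KO pools, against 6.31 and 6.29 in the WT pools, so that both WT pools lay between the KO pools. Kit, the receptor of differentiating spermatogonia and of Leydig cells, was at 8.20 and 8.81 in the KO pools, against 8.75 and 8.58 in the WT pools, and the transglutaminase gene Tgm2 was at 7.93 and 8.28 in the KO pools, against 8.41 and 8.27 in the WT pools. In both, KO replicate 1 was the low pool. For Kit the log2 fold change was -0.16, with 0.14 when KO replicate 1 was left out and -0.46 when KO replicate 2 was. For Tgm2 it was -0.24, with -0.07 when KO replicate 1 was left out and -0.41 when KO replicate 2 was. Stra8, Rec8, Kit and Tgm2 were chosen for naming after their values were seen.

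The textbook targets Rarb and Cyp26a1 carry a retinoic acid response element within their promoter window and are shown for that reason. In this element, the DR5, 2 half-sites stand in the same direction with 5 bases between them, and the half-sites are in capitals. Both sequences are from RefSeq in GRCm38.p6, at chr14:16575508-16575534 (minus strand) for Rarb and chr19:37697771-37697797 (plus strand) for Cyp26a1.
Rarb: ggaagGGTTCAccgaaAGTTCActcgc
Cyp26a1: aaagaTGAACTttgggTGAACTaattt
On the strand printed, the element of Cyp26a1 reads as the reverse complement of the half-sites. Among the 43 other pathway genes with a window, Rarb and Cyp26a1 were the 2 with a DR5 of these half-sites. Over all windows, 0.0974% held one, and of the 7 genes of the 9 with a window, 0 did. Rarb, a retinoic acid receptor, was at 6.33 and 6.63 in the KO pools, against 6.51 and 6.53 in the WT pools (log2 fold change -0.04, 95% confidence interval -0.31 to 0.24). Cyp26a1, which breaks down retinoic acid, was at 5.25 and 5.29 in the KO pools, against 5.29 and 5.35 in the WT pools (log2 fold change -0.05, 95% confidence interval -0.19 to 0.08). Neither had an unadjusted p under 0.05 from limma, and the signal of Cyp26a1 was dim in all 4 pools.

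Over the whole pathway, 59 other genes were listed by role and 55 had a value. At an adjusted p of 0.05 from limma, 0 of the 55 passed, against 0.00531% of all genes, and 0 met the fold threshold, against 0.0956% of all genes. An unadjusted p under 0.05 was reached by 1 of the 55, against 3.95% of all genes. Their median log2 fold change was 0.01, equal at this rounding to that of all genes, with 30 above 0 and 25 below. The pools did not overlap for 11 that were higher and 5 that were lower in KO, against 20.3% and 12.2% of all genes. For uptake, transport and storage, the 11 genes ranged from -0.03 for Lrat, which esterifies retinol for storage, to 0.13 for Rbp4, the plasma carrier of retinol. Among the 5 other nuclear receptors the range was from -0.04 for Rarb to 0.22 for Rxra, the partner of the retinoic acid receptors, at 8.23 and 8.55 in the KO pools, against 8.35 and 8.003 in the WT pools. The 4 coregulators with a value lay between -0.07 for the corepressor gene Nrip1 and 0.03 for the coactivator gene Ncoa3.

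**Figure D3:**
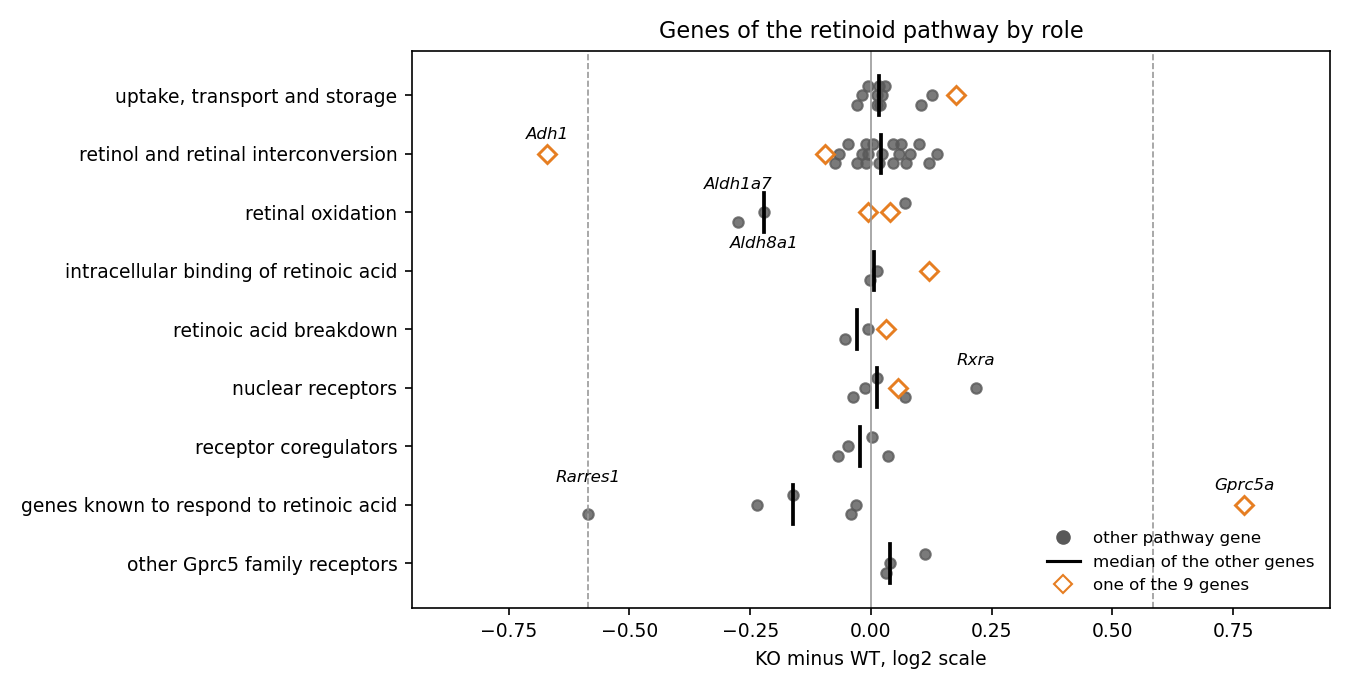
Difference between KO and WT testes on the log2 scale (horizontal axis) for the 55 other pathway genes (grey points, with black bars at their medians) and the 9 genes (orange diamonds), by role. Dashed lines mark a fold of 1.5. Adh1 (-0.67) and Gprc5a (0.77), which were picked for their difference, lie beyond them, Rarres1 (-0.585) lies at one, and the rest fall between -0.275 and 0.22.

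The 7 genes not picked for their change varied among the pools in part together. WT replicate 2 held the lowest value of 5 of the 7 (Stra6, Aldh1a1, Aldh1a2, Crabp1 and Rara), against 30.1% of all genes. Sertoli cell markers, which include Sox9 and Wt1, had their lowest value in that pool for 8 of 10 genes, and spermatogonia markers for 4 of 7. The averaged markers of peritubular myoid cells (-0.07) were lowest there too, while those of spermatocytes stood at -0.03 both there and in KO replicate 2. Relative to their mean over the 4 arrays, the Sertoli cell markers stood at -0.01 and 0.08 in the KO pools and at 0.03 and -0.09 in the WT pools, and the spermatogonia markers at 0.04 and 0.02 in the KO pools and at 0.04 and -0.09 in the WT pools. The part of these cells in the values of the 5 genes was not tested.

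Markers of other cells also differed among the pools, in part in another order than Adh1. Macrophage markers were highest in WT replicate 2 for 7 of 8 genes, as Adh1 was, against 23.8% of all genes, and 7 of 8 were below 0 on the log2 scale of KO over WT, against 43.4% of all genes. Their mean was -0.27 and -0.02 in the KO pools and -0.03 and 0.32 in the WT pools, relative to the mean of the 4 arrays, and the averaged log2 level of the list ranged from 6.69 to 6.94 in KO and from 6.93 to 7.27 in WT testes. Vsig4, a complement receptor, was the one macrophage marker that met the fold threshold, against 0.0956% of all genes. It was at 5.89 and 5.64 in the KO pools, against 6.63 and 7.63 in the WT pools (unadjusted p = 0.00897 and adjusted p = 0.9995 from limma). Without Vsig4 the list stood at -0.22, 0.09, -0.06 and 0.19 in the same order of pools. Leydig cell markers were below 0 in 7 of 7 genes, with all 7 lowest in KO replicate 1, as were 22.1% of all genes. Only 1 of the 7 was highest in WT replicate 2, against 23.8% of all genes. Relative to their mean over the 4 arrays, they averaged 0.06 both there and in KO replicate 2. Their averaged log2 level ranged from 9.93 to 10.25 in KO and from 10.25 to 10.34 in WT testes. Without Sult1e1, the estrogen sulfotransferase at -1.02, it ranged from 10.13 to 10.40 in KO and from 10.28 to 10.39 in WT testes. Sult1e1 also met the fold threshold (unadjusted p = 0.00397 and adjusted p = 0.9995 from limma). The study itself listed both Sult1e1 and Vsig4 among the changed genes of this contrast. Of the Leydig cell markers listed, Insl3 and Lhcgr had no value of their own. Endothelial cell markers were below 0 in 5 of 5 genes, with averaged log2 levels from 6.33 to 6.42 in KO and from 6.42 to 6.44 in WT testes, the lowest in KO replicate 1. Relative to their mean over the 4 arrays, they averaged 0.02 in both KO replicate 2 and WT replicate 2. The part of these cell types in the difference of Adh1 was not tested.

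Tissue carried over with the testis was also read. Of 5 adipocyte markers, 4 were below 0, against 43.4% of all genes, with averaged log2 levels from 5.57 to 5.70 in KO and from 5.70 to 5.77 in WT testes. Fabp4, the fatty acid-binding protein of adipocytes, was at 5.64 and 5.81 in the KO pools, against 6.132 and 5.95 in the WT pools (unadjusted p = 0.0194 and adjusted p = 0.9995 from limma). Adipoq, a defining adipocyte marker, was at 6.61 in both KO pools, against 6.60 and 6.65 in the WT pools. Of 5 epididymis markers, 4 were lower in both KO pools than in both WT pools, by at most 0.11, against 12.2% of all genes. The epididymis list was dim against array medians of 6.08 to 6.11. Its averaged log2 level was 5.04 in both KO pools, and 5.07 and 5.09 in the WT pools. As RMA values carry no detection call, it is not known whether epididymis RNA was present. Of 6 markers of simple epithelia, 4 were below 0, against 43.4% of all genes. The epithelial list averaged 6.38 to 6.39 in KO and 6.41 to 6.44 in WT testes. Their part in the differences of Adh1 and Gprc5a was not tested.

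**Figure D4:**
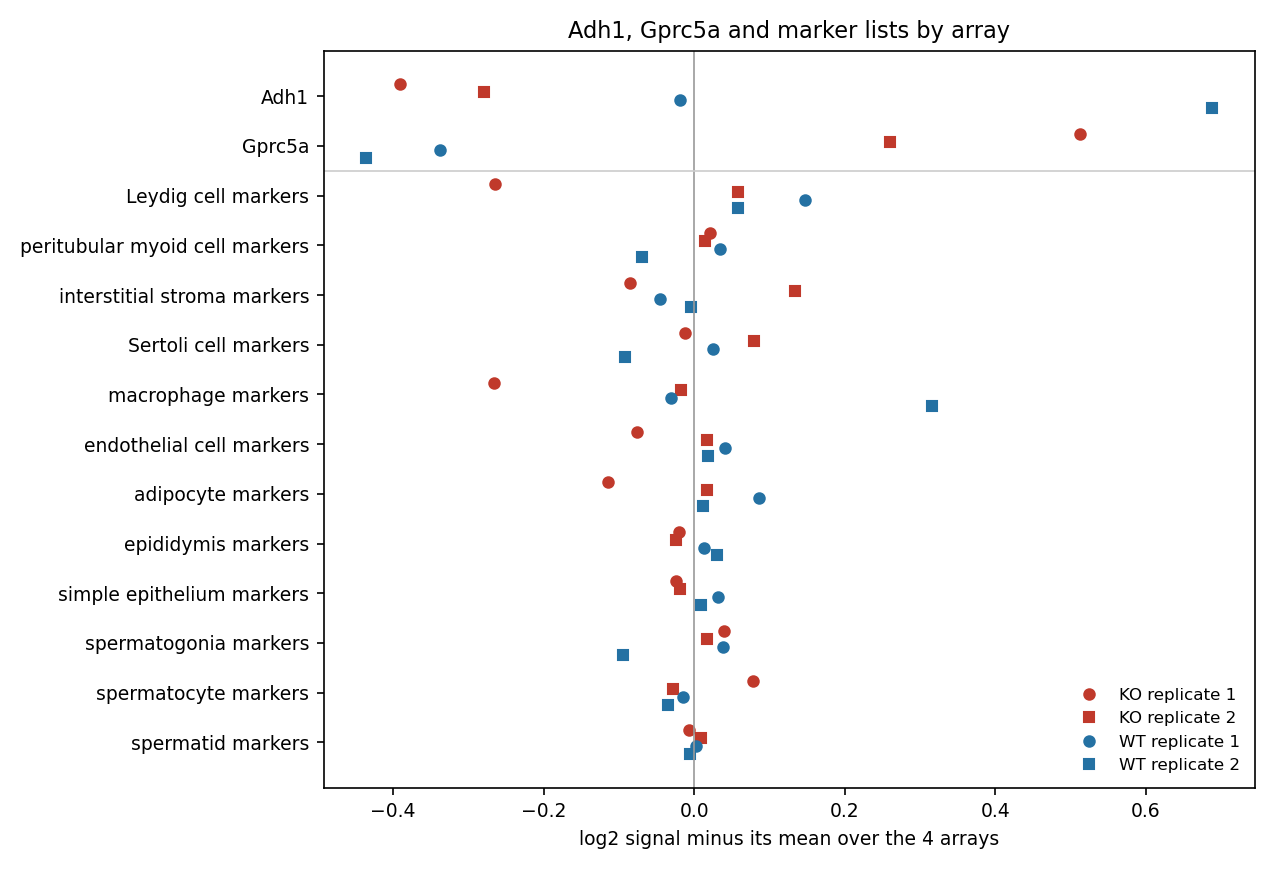
Log2 signal minus its mean over the 4 arrays (horizontal axis) of Adh1, Gprc5a and the averaged markers of 12 cell types or tissues, KO red and WT blue, circles for replicate 1 and squares for replicate 2. WT replicate 2 is the highest pool for Adh1 (0.69), for the macrophage markers (0.32) and for the epididymis markers (0.03). It is the lowest for Gprc5a (-0.44) and for the Sertoli cell (-0.09), spermatogonia (-0.09) and peritubular myoid cell (-0.07) markers. The spermatocyte markers are lowest there too, at -0.0346 against -0.0286 in KO replicate 2.

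The genes whose pattern was most like that of Adh1 over the 4 arrays, by Euclidean distance between centred log2 values, were Ctsc (0.13), Meg3 (0.23), Olfr872 (0.24), Smok2a (0.29) and Klk1b5 (0.33). Ctsc, the gene of the lysosomal protease cathepsin C, was at 7.02 and 7.28 in the KO pools, against 7.42 and 8.08 in the WT pools. All 5 had their highest value in WT replicate 2, as Adh1 did, which follows from choosing them by closeness to Adh1. Those most like Gprc5a were Hspb7 (0.32), Gm10324 (0.37), Npr2 (0.40), Mpzl2 (0.41) and Pusl1 (0.41). Hspb7, Npr2 and Pusl1 lie on chromosome 4, as Azin2 does, against 5.93% of all genes with a position. Gm10324 is on chromosome 13, Mpzl2 on chromosome 9 and Gprc5a itself on chromosome 6. Any part of the position on chromosome 4 in these patterns was not tested. Hspb7, which encodes a small heat shock protein, was at 8.61 and 8.25 in the KO pools, against 7.96 in both WT pools. With 4 arrays, closeness in pattern describes these pools and was not tested.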

How the data were processed

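Pools of 3 testes from Azin2 KO and WT mice were measured on 4 arrays. The authors deposited log2 signals per probe set from RMA, and the processing notes name Partek 6.13.1224. The sources used here give neither genome build nor annotation version. The labels describe cRNA from a 3′IVT kit and the paper's methods describe fragmented cDNA.

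Of 35556 probe sets, 23099 are in the platform annotation used here. Symbols were updated through gene identifiers. A gene with several probe sets took the one with the highest mean, and probe sets with several symbols name no gene. The contrast of KO minus WT was fitted with lmFit and eBayes (limma 3.58.1, R 4.3.3) without a filter, and p-values were adjusted over all 23099 by Benjamini-Hochberg. It is not stated whether the pools of a genotype shared mice or preparation, so p-values measure the spread between these pools, and the number of arrays limits the precision. A t-test, which the methods name for the study as a whole, was run as an alternative. The fit was tested on simulated data.

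The members and lists were chosen with earlier results of these data known. Named genes are the members, Azin2, the extremes of each role, listed genes past a threshold and the 5 nearest patterns. Outside this rule are Aldh8a1, Stra8, Rec8, Kit, Tgm2, Gprc5b, Fabp4, Adipoq, Prm1, Sox9, Wt1 and the neighbours of Adh1, named after the values were seen. The alternatives were an intensity trend, with and without robust eBayes, the ordinary test, quantile normalization, centring, leaving out dim probe sets, testing unnamed ones too, averaged probe sets, a replicate block, a fold of 1.2 and each array left out. Promoter windows are from RefSeq (GRCm38.p6). Python 3.11.15 with matplotlib 3.10.9 made the figures.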

Additional observations from a re-analysis of the deposited data

How the results depend on the processing

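Among the 7 genes not picked for their change, 0 passed an adjusted p of 0.05 under any alternative, and the lowest adjusted p was 0.920. The number of them with an unadjusted p under 0.05 ranged from 0 to 2 when each array was left out (Stra6 and Crabp1, both without WT replicate 1), and was 0 under the other alternatives. The sign of 6 of the 7 turned when an array was left out, with log2 fold changes from -0.0066 to 0.36 for Stra6, -0.11 to 0.10 for Aldh1a1, -0.0213 to 0.10 for Aldh1a2, -0.0345 to 0.27 for Crabp1, -0.0238 to 0.0854 for Cyp26b1 and -0.0084 to 0.12 for Rara. That of Aldh1a1 was also 0.0091 with the arrays centred on their medians. For the 6 genes whose sign turned, the pools of the genotypes overlap, so leaving 1 out could turn it. Why the pools differed was not tested. The filter on dim probe sets removed Gprc5a. Of the pathway genes, from 0 to 1 met the fold threshold (1.5-fold with an unadjusted limma p below 0.05) when an array was left out (Rarres1, without WT replicate 2). An unadjusted p under 0.05 was reached by 1 of the pathway genes (Aldh8a1), against 2 with an intensity trend, 2 with its robust form, 2 by the ordinary test, 2 with a replicate block (Rarres1 was added, at a limma p of 0.0134 and an adjusted p of 1), 0 without dim probe sets, which removed Aldh8a1, and from 1 (Rbp4, without WT replicate 1, where Aldh8a1 did not pass) to 5 (without KO replicate 2) with each array left out.

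Over all named probe sets, 1 passed an adjusted p of 0.05, against 0 by the ordinary equal-variance test, 0 with every probe set of the table tested, and from 0 to 2 with each array left out. The fold threshold was met by 19, against 6 by the ordinary test, 10 when those below the median level were left out (fewer were tested), 127 with every probe set, 200 at a fold of 1.2, and from 29 to 69 with each array left out, where the lone array is assumed to vary like the other group. Deviations of same-numbered pools had a correlation of -0.0818. As 1 correlation cannot exclude a pairing that touched some genes only, it does not settle whether the numbers pair the samples. With a replicate block, 24 met the fold threshold. Chosen after seeing the data, the mean log2 fold change of the macrophage markers was -0.13 without Vsig4, against -0.28, and that of the Leydig cell markers -0.07 without Sult1e1, against -0.21.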
